A study of Mus musculus with 16 samples.

Results

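Genes that copy DNA and genes that divide the cell were followed in cultured mouse CD4 T cells whose Ezh2 gene was intact or deleted. Ezh2 is the methyltransferase that places H3K27me3, a mark of repressed genes. The 44 genes were taken from a list given by name, with no threshold on a measured value. The list was chosen with earlier results of these data known. It was split into 22 replication and 22 mitosis genes. All 44 were found among the 23420 genes of the RNA files and the 22269 gene intervals of the ChIP files. Ezh2-deleted cells (Ezh2KO) came from Ezh2 fl/fl.CD4Cre mice, in which Cre recombinase is driven by Cd4, and control cells from Ezh2 fl/fl mice, so both genotypes carry the floxed allele. Naive CD4 T cells were isolated by flow sorting and stimulated with plate-bound anti-CD3 (5 ug/ml) and anti-CD28 (1 ug/ml). IL-2 was given at 50 U to the Th0 cultures. In the iTreg cultures, which make induced regulatory T cells, TGF-b1 (5 ng/ml) was added and IL-2 was at 200 U/ml. Each RNA group (Th0 control, Th0 Ezh2KO, iTreg control, iTreg Ezh2KO) had 3 biological replicates, and H3K27me3 ChIP was done on 2 replicates per genotype in Th0 cells. Titles give day 5 for iTreg RNA and day 4 for Th0 RNA, the protocol gives harvest on day 4, and no age was given for the mice.

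A T cell that meets antigen leaves quiescence and divides rapidly. In late G1, cyclin E with its kinase inactivates the retinoblastoma protein, which frees E2F transcription factors to switch on the genes of DNA synthesis. The helicase of Mcm2 to Mcm7 is loaded on origins by Cdc6 and Cdt1 and activated with Cdc45 and the GINS complex, and polymerases then copy the DNA with the help of the clamp Pcna. Mitosis genes follow later: cyclin A and cyclin B with Cdk1 drive entry, Aurora kinases and kinesins build the spindle, Bub1 and Bub1b guard it, and Cdc20 with Ube2c directs the anaphase-promoting complex to destroy cyclin B. Replication genes are classically driven through E2F sites, and many mitosis genes through CHR elements and CCAAT boxes bound by the DREAM complex, B-Myb with FoxM1, and NF-Y.

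The promoters of the members followed this division in part. RefSeq promoters (GRCm38.p6, the mm10 build, 250 bases before to 50 after the start) were matched by symbol for 34 of the 44 genes and searched on both strands for E2F letters (TTTCCCGC, TTTGGCGC, TTTCGCGC or TTTGCCGC), CHR letters (TTTGAA) and CCAAT. E2F letters were in the promoters of 7 of 17 replication genes (41.2%) and 1 of 17 mitosis genes (5.88%), against 2.26% of all 32851 promoters. CHR letters were in 4 replication genes (23.5%) and 12 mitosis genes (70.6%), against 17.9% of all promoters. CCAAT was in 64.7% of the replication genes and 88.2% of the mitosis genes, against 37.4% of all promoters. Member shares are per gene, with a match in any of its promoters, while the share of all promoters is per promoter. Counted per promoter, the 19 replication promoters had E2F letters in 36.8%, CHR letters in 21.1% and CCAAT in 68.4%. The mitosis shares were the same by either count. A match describes letters and is not a measured site. The 150 bases before the start are shown 5′ to 3′ in the direction of each gene, with matched letters in capitals, for a pair of E2F-type replication genes, for Cdk1, the 1 mitosis gene with both E2F and CHR letters, for a pair of CHR-type mitosis genes and for E2f2, the gene with the clearest genotype difference. In Mcm6 a pair of E2F matches on opposite strands overlap, and 1 of 2 RefSeq promoters of E2f2 is shown, whose E2F match lies after the start and outside the window. For Cdc6 the RefSeq start lies 350 bases inside the deposited gene interval. Its window and E2F match therefore lie after the start of that interval.
Mcm6 (chr1:128359706-128359855, minus strand): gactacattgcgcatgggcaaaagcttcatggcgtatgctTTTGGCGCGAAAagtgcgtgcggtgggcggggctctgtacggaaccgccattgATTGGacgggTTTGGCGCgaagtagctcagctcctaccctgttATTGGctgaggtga
Cdc6 (chr11:98908001-98908150, plus strand): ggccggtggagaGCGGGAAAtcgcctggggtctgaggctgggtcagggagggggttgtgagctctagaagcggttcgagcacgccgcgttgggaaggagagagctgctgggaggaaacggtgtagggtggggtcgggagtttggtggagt
E2f2 (chr4:136172124-136172273, plus strand): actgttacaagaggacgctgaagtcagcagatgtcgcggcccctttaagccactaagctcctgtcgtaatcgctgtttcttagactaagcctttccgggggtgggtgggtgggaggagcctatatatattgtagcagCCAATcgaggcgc
Cdk1 (chr10:69352913-69353062, minus strand): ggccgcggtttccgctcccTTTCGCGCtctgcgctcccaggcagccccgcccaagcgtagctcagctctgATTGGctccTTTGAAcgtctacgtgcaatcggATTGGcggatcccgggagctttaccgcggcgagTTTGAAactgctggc
Cdc20 (chr4:118437344-118437493, minus strand): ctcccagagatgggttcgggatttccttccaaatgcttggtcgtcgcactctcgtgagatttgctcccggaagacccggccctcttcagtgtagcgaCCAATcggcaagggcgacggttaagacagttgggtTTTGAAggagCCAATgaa
Mki67 (chr7:135716380-135716529, minus strand): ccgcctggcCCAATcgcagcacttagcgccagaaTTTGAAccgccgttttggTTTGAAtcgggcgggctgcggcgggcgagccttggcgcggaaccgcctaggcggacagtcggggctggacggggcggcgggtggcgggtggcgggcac

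RNA libraries held 21910114 to 28443427 counted reads and shared 1 flow-cell code, and ChIP libraries held 11124172 to 15103496. Ezh2 itself had 295 to 312 CPM (counts-per-million of counted reads) in Th0 control against 148 to 169 in Th0 Ezh2KO, and 166 to 251 in iTreg control against 48.7 to 123 in iTreg Ezh2KO, so every Ezh2KO library lay below every control library of its culture but kept reads of the gene. The sources used here do not say which exons are floxed. All 5 T cell markers found (Cd3e, Cd3g, Cd3d, Cd4, Lck) had reads in every library, and Foxp3 had 850 to 979 CPM in iTreg control and 65.2 to 90.9 in iTreg Ezh2KO against at most 23.9 in Th0. A pair of iTreg libraries, Ezh2KO.165 and control 177, stood apart in the members' levels, and member counts that rest on them are given with and without them. In iTreg Ezh2KO.165 Ezh2 was at its lowest (48.7 CPM), but Cdkn2a, Cdkn2b and Mycn, which were 32.0 CPM or more (Cdkn2a), 3.35 or more (Cdkn2b) and 19.8 or more (Mycn) in the other 5 Ezh2KO libraries, were at 1.10, 0.319 and 1.37, in the range of the controls. Both Ezh2KO.165 libraries, Th0 and iTreg, had Xist at 1052 and 1143 CPM and Ddx3y at 0.386 and 0.183, against Xist of at most 0.857 and Ddx3y of at least 87.4 in the other 10; the part of sex in the results was not tested.

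In control Th0 cells the members were among the well expressed genes, and all 44 passed the filter on low counts. On the RPKM scale (CPM per kb of transcript), the levels in Th0 control ran from 712 ± 28.1 (SD, n = 3) for Pcna, the sliding clamp, to 5.70 ± 0.152 for Ccne2, a cyclin E that acts with Cdk2. Pcna stood above 99.3% of the 12845 genes tested and Ccne2 above 45.2%. Top2a, the topoisomerase that untangles sister chromatids, had 396 ± 30.0 RPKM, and Rrm2, the regulated subunit of ribonucleotide reductase, had 280 ± 7.18. Together the members took 1.39% to 1.54% of the counted reads in Th0 libraries and 1.16% to 1.36% in iTreg control 154 and 155 and iTreg Ezh2KO.150 and Ezh2KO.153. The share was 0.908% in iTreg control 177 and 0.284% in iTreg Ezh2KO.165.

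**Figure D1:**
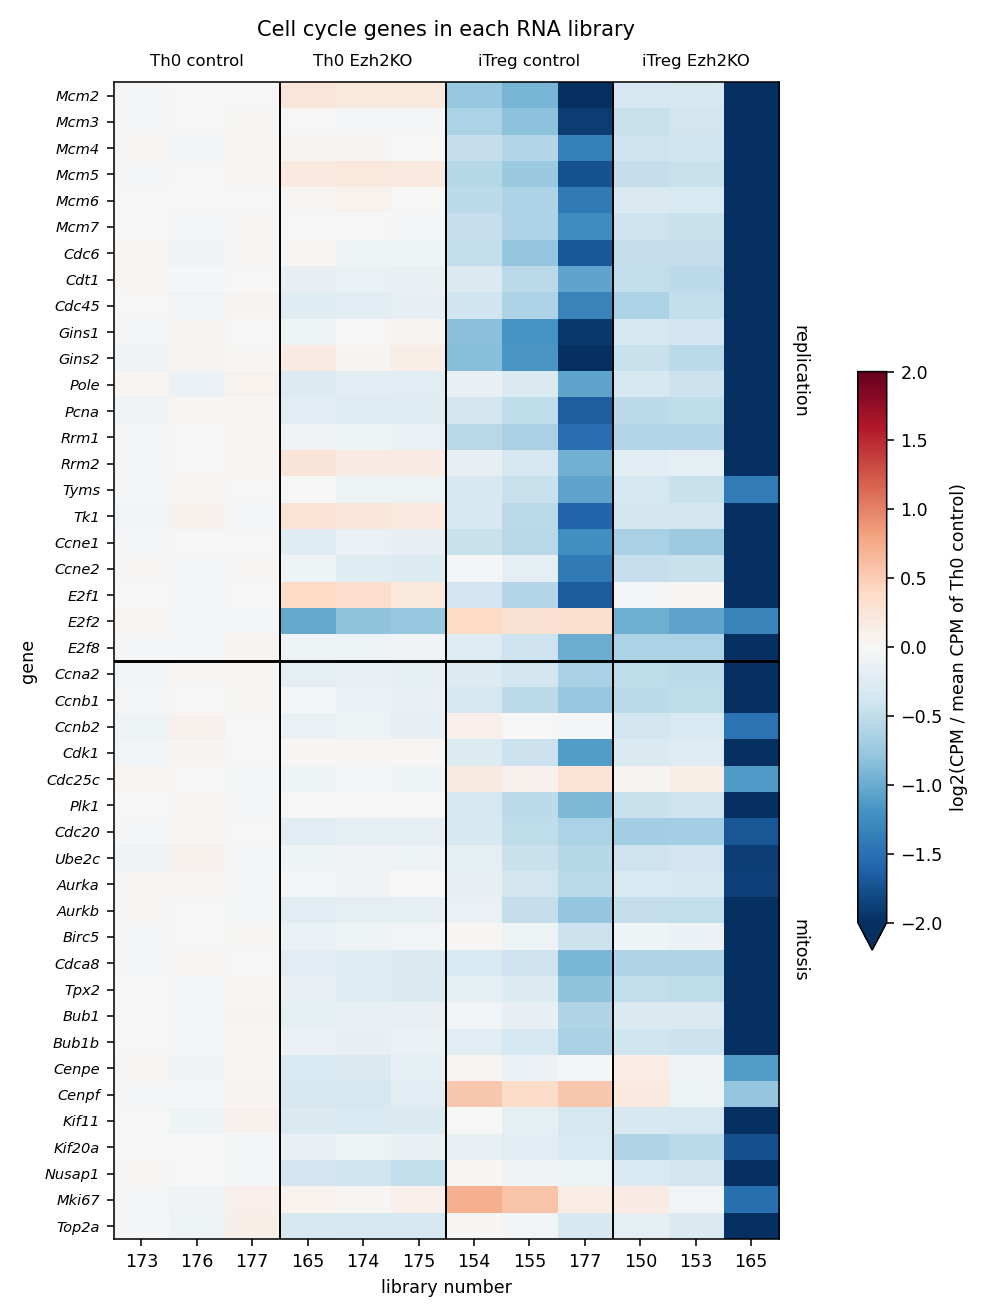
Heat map of the 44 genes (rows, replication above the line and mitosis below) in the 12 RNA libraries (columns, by library number), coloured by the log2 ratio of CPM to the Th0 control mean, with values under the lower end of the scale at its darkest colour. E2f2 is low in both Ezh2KO groups, and iTreg Ezh2KO.165 and, among the replication genes, iTreg control 177 are the darkest columns.

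In the fit of all 12 libraries, E2f2, one of the activating E2F factors (chr4:136172394-136196057 in mm10), was the 1 member called between genotypes in both cultures. It had 232, 222 and 223 CPM in the Th0 control libraries 173, 176 and 177 and 111, 130.0 and 133 in Th0 Ezh2KO.165, then Ezh2KO.174, then Ezh2KO.175. In iTreg cells it had 298, 278 and 282 CPM in controls 154, 155 and 177 and 115, 109 and 89.5 in Ezh2KO.150, then Ezh2KO.153, then Ezh2KO.165, and all lists of values below keep these orders. Every Ezh2KO library was below every control library, in both cultures, which also held for Ccnb2, Cdc20, Cenpf, Kif20a and Nusap1. Of all genes, 26.0% lay so in Th0 and 12.8% in iTreg, and the share for both cultures was not counted. The pair of iTreg libraries that stood apart lay close to their groups for E2f2. E2f2 fell by 0.89 on the log2 scale in Th0 (SE 0.118, edgeR adjusted p = 0.00114) and by 1.45 in iTreg (SE 0.120, adjusted p = 6.54e-05). Its call held in all 21 alternatives tried in Th0 (log2 change -0.95 to -0.81, adjusted p 2.68e-12 to 0.00879) and in all 22 in iTreg (-1.53 to -1.35, adjusted p 1.93e-31 to 0.0173). The difference between the cultures, -0.56, did not pass the threshold (edgeR adjusted p = 0.104, range over alternatives 0.00239 to 0.255), but did with DESeq2 (-0.55, adjusted p = 0.019) and in the 3 fits without iTreg Ezh2KO.165 (-0.55 to -0.46, the smallest adjusted p at 0.00239 without control 177 as well).

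Across the 44 genes, E2f2 was the 1 member called in Th0 when all 12 libraries entered 1 fit, against 12% of all genes tested. In that fit the median log2 change was -0.07 for replication and -0.18 for mitosis genes, against 0.00 for all genes. The shared spread of that fit includes the libraries that stand apart. In the fit on the 6 Th0 libraries alone 30 of 44 members were called, 5 higher and 25 lower, where 52.1% of all genes were called. All 5 that rose there were replication genes, and the 25 that fell were 9 replication and 16 mitosis genes. B cell marker sums were 196 to 447 CPM in Th0 Ezh2KO and 65.8 to 111 in Th0 control, with no B cell marker at 0 in any library. T cell marker sums were 1164 to 1384 CPM in Th0 Ezh2KO and 1798 to 1860 in Th0 control, and regulatory T cell marker sums 585 to 938 and 2859 to 2955, also with none at 0. The part of these markers in the changes was not tested. In bulk RNA, fewer cycling cells and less transcript per cycling cell cannot be told apart.

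Among the helicase genes, Mcm2 and Mcm5 rose and Cdc45 and Cdt1 fell in Ezh2KO Th0 cells, by small amounts. Mcm2, a subunit of the replicative helicase, had 416, 421 and 425 CPM in Th0 control, 498, 487 and 489 in Th0 Ezh2KO, 249, 221 and 72.6 in iTreg control, and 332, 337 and 26.0 in iTreg Ezh2KO. Mcm5, its ring neighbour, had 555, 576 and 584 CPM in Th0 control, 655, 662 and 654 in Th0 Ezh2KO, 383, 343 and 171 in iTreg control, and 409.9, 421 and 45.1 in iTreg Ezh2KO. In both genes the 3 Th0 Ezh2KO libraries were above the 3 Th0 controls without overlap, and iTreg levels were lower, lowest in Ezh2KO.165 and control 177. With the 6 Th0 libraries Mcm2 rose by 0.20 (SE 0.0350, adjusted p = 0.000766) and Mcm5 by 0.17 (adjusted p = 0.00225), while with all 12 libraries neither was called (0.19, adjusted p = 0.942, and 0.17, 0.940). The remaining Mcm genes had log2 changes of -0.05 (Mcm3) to 0.00 (Mcm4 and Mcm6) in the same 6 libraries, with Mcm7 at -0.03, and none of these 4 was called. Cdc6, which loads the helicase, had 139, 129 and 137 CPM in Th0 control, 138, 128 and 127 in Th0 Ezh2KO, 95.8, 79.0 and 41.9 in iTreg control, and 97.5, 97.3 and 7.12 in iTreg Ezh2KO. Its genotypes overlapped in both cultures, and iTreg Ezh2KO.165 was far below every other library. Cdc45, which activates the helicase, had 124, 119 and 128 CPM in Th0 control, 104, 105 and 110.0 in Th0 Ezh2KO, 93.6, 80.3 and 49.1 in iTreg control, and 79.4, 87.8 and 11.0 in iTreg Ezh2KO. Here the 3 Th0 Ezh2KO libraries were below the 3 controls, with a fall of 0.24 in the 6 Th0 libraries (adjusted p = 0.000825). Cdt1, the partner of Cdc6, fell by 0.18 there, and the GINS subunits Gins1 (-0.04) and Gins2 (0.08) were not called.

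In the 6 Th0 libraries Pcna and Pole fell, and genes of nucleotide supply changed in both directions. Pcna had 856, 919.9 and 914 CPM in Th0 control, 773, 749.5 and 755 in Th0 Ezh2KO, 695, 633 and 287 in iTreg control, and 626, 628 and 109 in iTreg Ezh2KO. Rrm2 had 594, 609.9 and 625 CPM in Th0 control, 732, 686 and 684 in Th0 Ezh2KO, 545, 486 and 312 in iTreg control, and 529, 536 and 69.1 in iTreg Ezh2KO. Pcna was lower and Rrm2 higher in every Th0 Ezh2KO library than in every Th0 control, and in the 6 Th0 libraries Pcna fell by 0.27 (adjusted p = 0.000209) and Rrm2 rose by 0.17 (adjusted p = 0.00421). Tyms, thymidylate synthase, had 166, 174.8 and 170.0 CPM in Th0 control, 171, 158 and 159 in Th0 Ezh2KO, 136, 125 and 82.0 in iTreg control, and 134, 125 and 64.4 in iTreg Ezh2KO. Th0 genotypes overlapped for Tyms, and iTreg Ezh2KO.165 was the lowest of the 12 libraries. In the same 6 libraries Tk1, thymidine kinase, rose by 0.21, while Rrm1, the large reductase subunit, fell by 0.12 and Pole, the leading-strand polymerase, by 0.27. With all 12 libraries neither Pcna (-0.27, adjusted p = 0.873) nor Pole (-0.27, 0.885) was called.

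Among the G1/S regulators, E2f1 and E2f2 went apart. E2f1, the other activator on the list, had 60.4, 58.8 and 60.2 CPM in Th0 control, 78.4, 76.2 and 69.3 in Th0 Ezh2KO, 46.0, 39.7 and 18.9 in iTreg control, and 58.4, 60.5 and 7.90 in iTreg Ezh2KO. All 3 Th0 Ezh2KO libraries exceeded the controls, and E2f1 rose by 0.29 in the 6 Th0 libraries (SE 0.0511, adjusted p = 0.000688; 0.880 with all 12). E2f8, a repressive E2F, had 161, 163 and 172 CPM in Th0 control, 154, 155 and 158 in Th0 Ezh2KO, 138, 124 and 83.4 in iTreg control, and 106, 107 and 15.7 in iTreg Ezh2KO. Ccne1, cyclin E1, had 129, 132 and 132 CPM in Th0 control, 111, 119.8 and 117 in Th0 Ezh2KO, 95.8, 89.0 and 56.3 in iTreg control, and 83.3, 79.6 and 24.1 in iTreg Ezh2KO. Ccne2 had 35.0, 33.4 and 34.9 CPM in Th0 control, 32.6, 29.2 and 28.4 in Th0 Ezh2KO, 33.9, 30.4 and 12.9 in iTreg control, and 24.9, 25.3 and 2.05 in iTreg Ezh2KO. These 3 were lower in every Th0 Ezh2KO library than in every control, by small amounts, with falls of 0.12 for E2f8, 0.21 for Ccne1 and 0.22 for Ccne2 (adjusted p 0.0330, 0.00216 and 0.0113).

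Of the mitosis genes 16 of 22 fell and none rose in the 6 Th0 libraries, most by small amounts. In that fit 52.1% of the 12284 genes tested were called, and 3139 of them fell. Top2a had 2044, 1923 and 2233 CPM in Th0 control, 1652, 1617 and 1621 in Th0 Ezh2KO, 2109.8, 1986 and 1656 in iTreg control, and 1797, 1694 and 388 in iTreg Ezh2KO. Ccna2, cyclin A2, had 457, 483 and 479 CPM in Th0 control, 417, 429 and 415 in Th0 Ezh2KO, 389.7, 365 and 302 in iTreg control, and 334, 328 and 87.9 in iTreg Ezh2KO. Th0 Ezh2KO lay below Th0 control without overlap in both, and with the 6 Th0 libraries Top2a fell by 0.37 (SE 0.0481, adjusted p = 7.89e-05) and Ccna2 by 0.20 (adjusted p = 0.00129). Cdc20, the activator of the anaphase-promoting complex, had 202, 215 and 208 CPM in Th0 control, 179, 182 and 183 in Th0 Ezh2KO, 167, 146 and 134 in iTreg control, and 128, 129.8 and 63.3 in iTreg Ezh2KO. Bub1, a checkpoint kinase, had 164, 160.4 and 172 CPM in Th0 control, 147, 150.3 and 149 in Th0 Ezh2KO, 159, 148 and 109 in iTreg control, and 135, 135 and 25.0 in iTreg Ezh2KO. Aurkb, the kinase of the chromosomal passenger complex, had 221, 220.0 and 215 CPM in Th0 control, 187, 193 and 192 in Th0 Ezh2KO, 199, 157 and 127 in iTreg control, and 157, 156 and 46.5 in iTreg Ezh2KO. Each of these 3 was lower in all Th0 Ezh2KO libraries than in all Th0 controls, and fell by 0.22, 0.19 and 0.23.

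The 5 largest falls among the mitosis genes in the 6 Th0 libraries were those of Nusap1, Top2a, Kif11, Cenpf and Cenpe. Nusap1, a microtubule bundler of the spindle, had 291, 286 and 281 CPM in Th0 control, 220.4, 217 and 204 in Th0 Ezh2KO, 291, 272 and 267 in iTreg control, and 232, 221 and 71.2 in iTreg Ezh2KO. It fell by 0.45 in the 6 Th0 libraries (SE 0.0418, adjusted p = 6.56e-06), more than any other mitosis gene, followed by Top2a, the kinesin Kif11 (-0.33) and the kinetochore proteins Cenpf (-0.32) and Cenpe (-0.29). Ccnb1, cyclin B1, had 289.6, 299 and 299.6 CPM in Th0 control, 287, 274 and 268 in Th0 Ezh2KO, 236, 206 and 174.3 in iTreg control, and 206, 209 and 59.1 in iTreg Ezh2KO. Birc5, survivin, had 254, 261 and 263 CPM in Th0 control, 236, 241 and 249 in Th0 Ezh2KO, 262, 240.1 and 191 in iTreg control, and 243, 239 and 61.8 in iTreg Ezh2KO. Both were lower in every Th0 Ezh2KO library, by narrow margins, and fell by 0.13 and 0.13.

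A few mitosis genes did not separate by genotype in Th0 cells. Cdk1, the mitotic kinase, had 218, 236 and 227 CPM in Th0 control, 231, 232 and 232 in Th0 Ezh2KO, 189, 168 and 105 in iTreg control, and 186, 189 and 32.2 in iTreg Ezh2KO. Plk1, a polo kinase of mitotic entry, had 213, 216 and 209 CPM in Th0 control, 211, 211 and 211 in Th0 Ezh2KO, 169, 147 and 114 in iTreg control, and 156, 159 and 42.0 in iTreg Ezh2KO. Mki67, the Ki-67 antigen that coats mitotic chromosomes and is a common stain for cycling cells, had 1063, 1044 and 1169 CPM in Th0 control, 1142, 1111 and 1178 in Th0 Ezh2KO, 1778, 1623 and 1211 in iTreg control, and 1229, 1053 and 383 in iTreg Ezh2KO. The Th0 genotypes overlapped for all 3, with log2 changes of 0.00 (SE 0.0425), -0.04 (0.0384) and 0.04 (0.0464) in the 6 Th0 libraries.

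Counted by library, 26 members (9 replication and 17 mitosis) were lower in every Th0 Ezh2KO library than in every Th0 control, which held for 26.0% of all genes, and 6 replication genes and no mitosis gene were higher in every one, against 33.2% of all genes: Mcm2, Mcm5, Gins2, Rrm2, Tk1 and E2f1. The mean log2(CPM + 0.5) of the 22 replication genes was 7.72 to 7.75 in Th0 control and 7.68 to 7.70 in Th0 Ezh2KO. For the 22 mitosis genes it was at least 7.97 in each control library and 7.82 in each Ezh2KO library. The difference, replication minus mitosis, was -0.26 to -0.24 in Th0 control and -0.14 to -0.13 in Th0 Ezh2KO, without overlap. Without iTreg Ezh2KO.165 the 12-library fit made 6 Th0 calls in place of 1 (E2f2, Nusap1, Top2a, Kif11, Cenpf and Cenpe, all lower), against 27.1% of all genes, and without iTreg control 177 as well 30, against 51.6%.

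**Figure D2:**
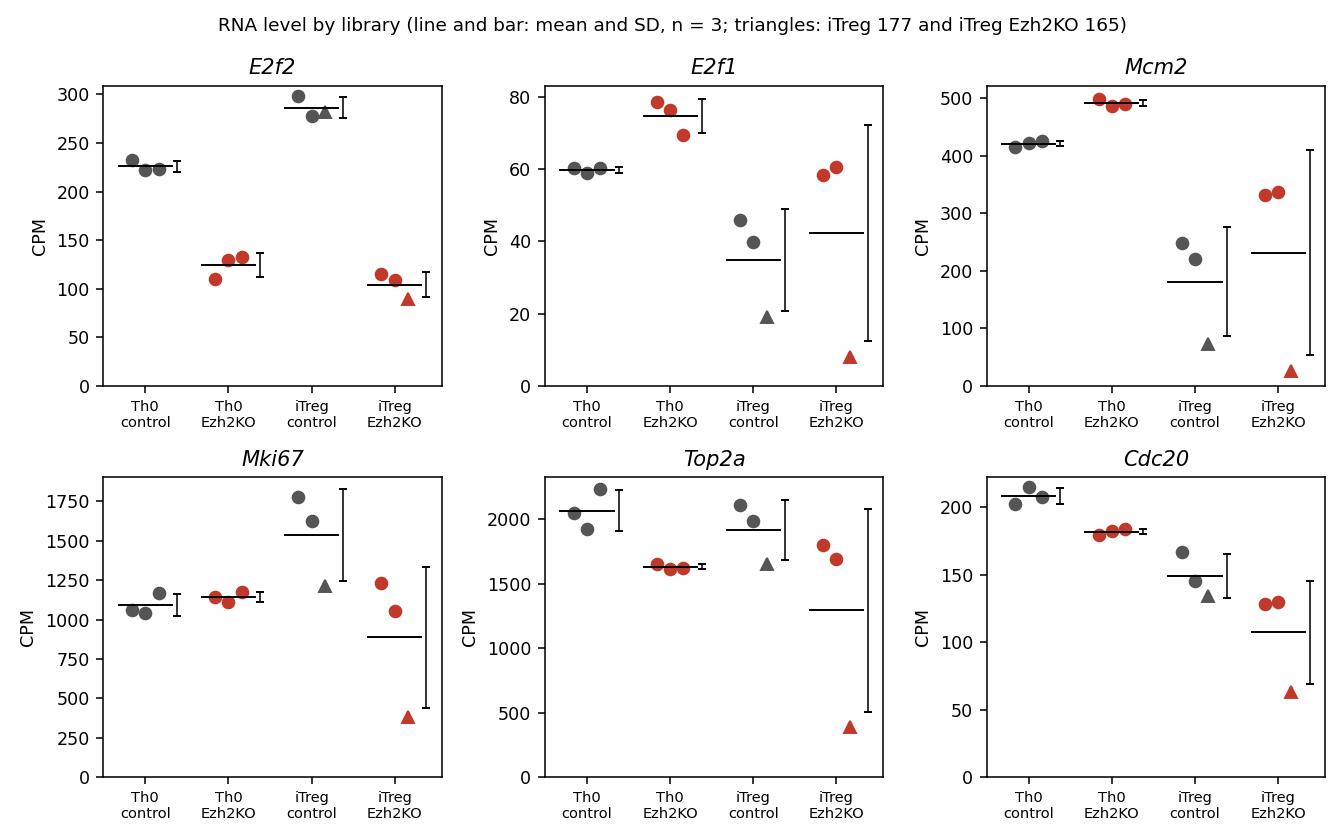
CPM of 6 genes in each RNA library (points; grey control, red Ezh2KO), with group means (lines) and SD (bars, n = 3); triangles mark iTreg control 177 and iTreg Ezh2KO.165. In the E2f2 and Cdc20 panels the Ezh2KO libraries of both cultures lie below the controls of their culture, with the wider gap for E2f2. E2f1 and Mcm2 are higher in Th0 Ezh2KO than in Th0 control.

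In iTreg cells the fit of all 12 libraries called 2 members, E2f2 and Cenpf, against 16.7% of all genes. Cenpf, a large kinetochore protein (chr1:189640599-189688086), had 195, 172 and 193 CPM in iTreg control and 153.3, 125 and 78.3 in iTreg Ezh2KO, without overlap, and fell by 0.65 (SE 0.196, adjusted p = 0.0492). That call was at the edge: it was lost without any 1 of 10 libraries (all but iTreg Ezh2KO.150 and Ezh2KO.165; adjusted p 0.0746 to 0.129) and in the 6 iTreg libraries alone (0.308). Medians were -0.13 for replication and -0.47 for mitosis genes, against 0.01 for all genes. No member was higher in every Ezh2KO library (12.7% of all genes were), and 6 were lower in every one (12.8% of all genes): E2f2, Cenpf, Nusap1, Ccnb2, Cdc20 and Kif20a.

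Without iTreg Ezh2KO.165 the replication median changed sign, from -0.13 to 0.28, and the mitosis median went to -0.08. In that fit 8 members were called, Gins1 and E2f1 higher and E2f2, Ccnb2, Cenpf, Kif20a, Nusap1 and Mki67 lower, against 44.2% of all genes. With control 177 left out too, so that Ezh2KO.150 and Ezh2KO.153 were compared with 154 and 155 alone, a choice made after seeing the data, 23 members were called against 58.1% of all genes. All 7 that rose were replication genes: Gins1 by 0.64, Mcm2 by 0.52, Gins2 by 0.51, E2f1 by 0.48, Mcm3 by 0.32, Mcm6 by 0.28 and Mcm5 by 0.20 (adjusted p 5.38e-05 to 0.0157). Those that fell were 4 G1/S regulators, E2f2, Ccne2, E2f8 and Ccne1, and 12 mitosis genes. Mki67 fell by 0.57 (SE 0.0800, adjusted p = 0.000838), from 1778 and 1623 CPM to 1229 and 1053. Ccnb2, cyclin B2, fell by 0.38, from 217 and 201 CPM to 156 and 163, and Kif20a, a kinesin of the central spindle, by 0.37, from 156 and 149 CPM to 115 and 120.2. These fits have 2 libraries a group, kept because the other pair stood apart, and in all 6 iTreg libraries E2f2 was the 1 member called, against 4.34% of all genes.

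The 2 cultures can be set side by side because the 6 Th0 and the 4 iTreg libraries share no sample. Of the 25 members that fell in Th0, 15 (60.0%) also fell in the 4 iTreg libraries, and these made 93.8% of the 16 that fell there. Over all genes, 49.8% of those that fell in Th0 also fell in the 4 iTreg libraries, which made 43.8% of those that fell there. The 15 members were E2f2, E2f8, Ccne1, Ccne2, Ccna2, Ccnb2, Cdc20, Top2a, Nusap1, Kif11, Kif20a, Tpx2, Cdca8, Bub1 and Cenpf, and Mki67 was the 1 that fell in iTreg alone. Of the 5 that rose in Th0, 3 (60.0%) also rose in iTreg, Mcm2, Mcm5 and E2f1, which made 42.9% of the 7 there, where over all genes the shares were 56.0% and 49.1%. For the difference of the genotype changes between cultures, the 12-library fit called 0 members, against 4.49% of all genes. In that fit 1 member (E2f2) had an unadjusted p under 0.05, and DESeq2 called 1, with no share of all genes beside these counts. Without the libraries that stand apart the edgeR fit called 11, against 41.2% of all genes, among them Gins1 (0.68), Mcm3 (0.37) and Mcm2 (0.32), higher, and Mki67 (-0.61) and E2f2 (-0.47), lower in iTreg than in Th0.

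**Figure D3:**
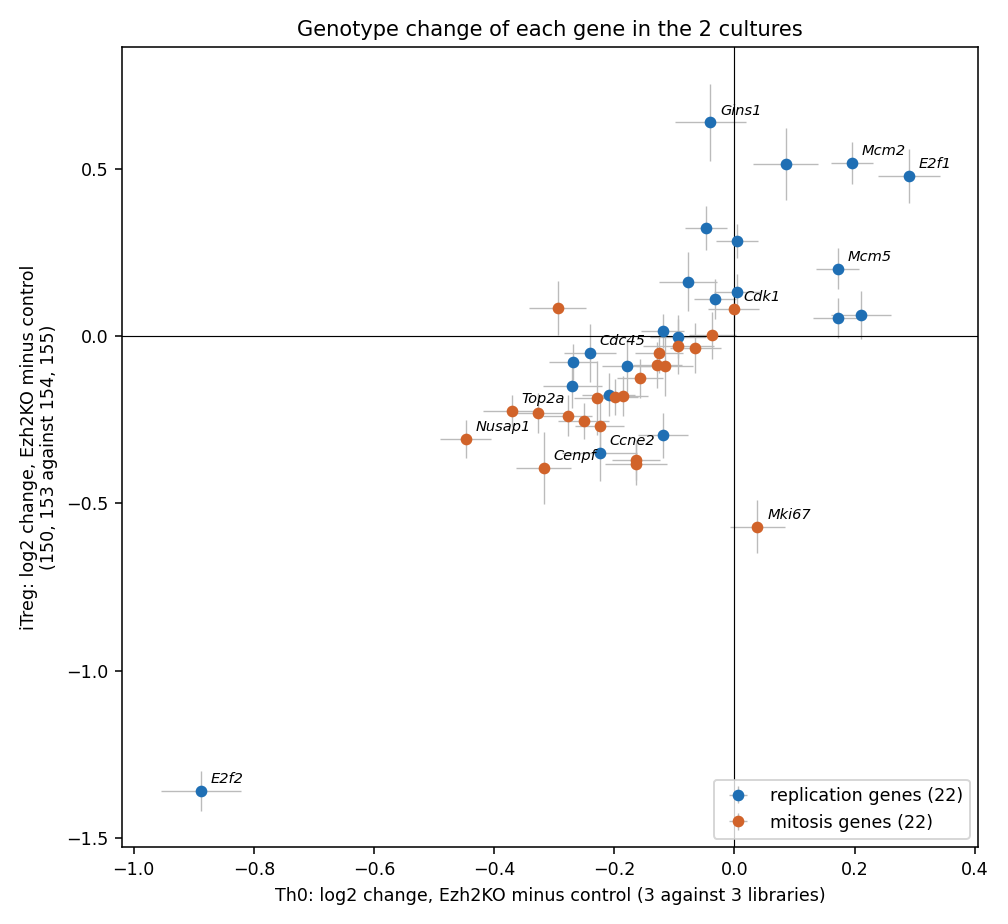
Log2 change of each gene, Ezh2KO minus control, in the 6 Th0 libraries (horizontal) and in iTreg control 154 and 155 with Ezh2KO.150 and Ezh2KO.153 (vertical), with standard errors; blue replication, orange mitosis. Mitosis genes lie mostly in the lower left, the genes in the upper right are replication genes, and E2f2 stands alone at -0.89 and -1.36.

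Between cultures in control cells, 40 of 44 members had log2 changes below 0 in iTreg against Th0 and 4 had changes above 0 (Mki67, Cenpf, E2f2 and Cdc25c). The medians were -0.80 for replication and -0.37 for mitosis genes, a difference that was not tested, against 0.06 for all genes. Yet the 12-library edgeR fit called 0 of 44, against 31.4% of all genes. In that fit 3 members had an unadjusted p under 0.05, and DESeq2 called 1, with no share of all genes beside these counts. Leaving out iTreg Ezh2KO.165, a library of the other genotype that enters only through the shared spread, 37 were called, against 62.9% of all genes, and without control 177 as well also 37 (3 higher and 34 lower), against 66.8% of all genes. In the 6 control libraries alone 30 were called, 28 lower and 2 higher, against 53.4% of all genes: Gins1 fell by 1.36 (SE 0.261, adjusted p = 0.00858), Mcm2 by 1.33 (0.428, 0.0396) and Cdc20 by 0.60 (0.103, 0.00618), while Cenpf rose by 0.37 (adjusted p = 0.0136) and E2f2 by 0.23 (0.0417). These sizes include iTreg control 177. Mcm2 had 249 and 221 CPM in iTreg controls 154 and 155 and 72.6 in 177, against 416 to 425 in Th0 control. Gins1 had 19.5 and 15.3 CPM and 9.15 in 177, against 33.8 to 36.0. In control cells the other replication genes (list counted below) had a median of -0.77 with all 12 libraries and -0.53 without the pair. For the other mitosis genes it was -0.22 and -0.13. Cenpf had 131, 131 and 138 CPM in Th0 control and 195, 172 and 193 in iTreg control, without overlap. Mki67, at 0.43 with all 12 libraries (adjusted p = 0.330), was also higher in every iTreg control than in every Th0 control. In Ezh2KO cells the medians were -0.90 for replication and -0.68 for mitosis genes, and 1 member was called, Cdc20 (-0.79, SE 0.230, adjusted p = 0.0338), against 25.4% of all genes. Cdc20 lost that call in the 6 Ezh2KO libraries (adjusted p = 0.152) and without any 1 of 7 libraries (iTreg control 155 or any Th0 library, 0.0504 to 0.0933). Without the libraries that stand apart 38 were called there, 36 lower and 2 higher, against 57.6% of all genes. The member medians of -0.90 and -0.68 include iTreg Ezh2KO.165. For the other replication genes (list counted below) the median was -0.76 with all 12 libraries and -0.29 without the pair. For the other mitosis genes it was -0.53 and -0.13. TGF-b1, the dose of IL-2 and the day in the title all differ between the cultures and cannot be told apart.

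The pair of iTreg libraries that stood apart did so most in the replication genes. Against the mean of Ezh2KO.150 and Ezh2KO.153, all 44 members were lower in iTreg Ezh2KO.165, and 42 were at least 2-fold lower, against 18.9% of all genes. The exceptions were E2f2 (1.25-fold lower) and Cenpf (1.77-fold lower). On the log2(CPM + 0.5) scale the median difference was -2.90 for replication and -1.70 for mitosis genes, against -0.01 for all genes. Cdc6 was 13.7-fold lower, Mcm2 12.9-fold, Ccne2 12.2-fold, Pcna 5.75-fold and Tyms 2.01-fold. By role, the helicase genes had a median of -3.19, nucleotide supply -3.00, the polymerase and clamp -2.74 and the G1/S regulators -2.72, while the mitotic roles lay between -1.87 (Ki-67 and Top2a) and -1.25 (the anaphase-promoting complex cofactors).

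iTreg control 177 was also low, by less. Relative to libraries 154 and 155, 42 of 44 members were lower, 9 of them at least 2-fold and all 9 replication genes, against 5.92% of all genes. The medians were -0.86 for replication and -0.31 for mitosis genes. Mcm2 was 3.24-fold lower, Ccne2 2.49-fold, Pcna 2.31-fold and Cdc6 2.09-fold, and E2f2 again was nearly level (1.02-fold). Cdk1 was the mitosis gene lowest relative to its group among the 22 in both libraries (5.83-fold and 1.70-fold lower). Replication minus mitosis was -1.41 in Ezh2KO.165 and -1.24 in control 177, against -0.62 to -0.36 in the other 4 iTreg libraries. Myeloid marker sums were 26.2 CPM in control 177 and 9.95 in Ezh2KO.165, against at most 5.26 in the other 10 libraries, and T cell marker sums were 2344 and 2859 CPM against 1794 to 1865 in the other 4 iTreg libraries; their part was not tested. In Th0 the replication means of these numbers were close to the rest, 7.70 in Th0 Ezh2KO.165 (Xist 1052 CPM) and 7.75 in Th0 control 177.

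**Figure D4:**
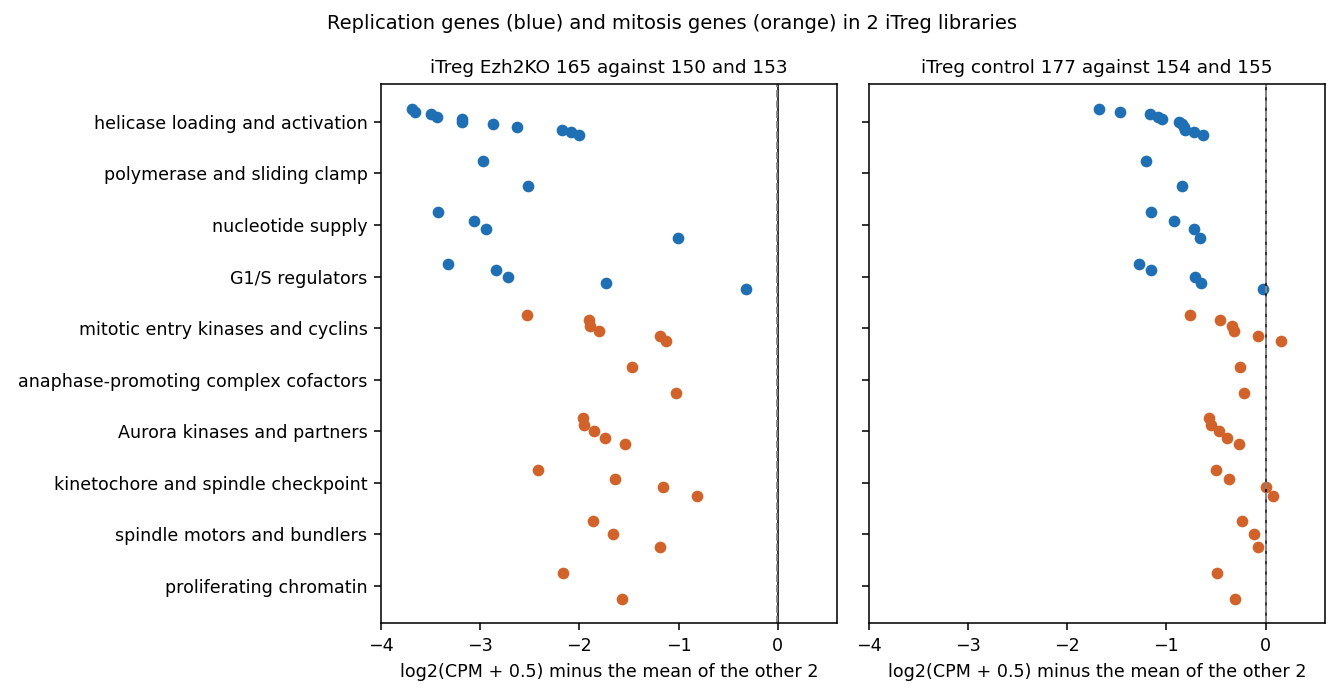
Difference of each gene in log2(CPM + 0.5) between iTreg Ezh2KO.165 and the mean of Ezh2KO.150 and Ezh2KO.153 (left) and between iTreg control 177 and the mean of 154 and 155 (right), by role; blue replication, orange mitosis, dashed line the median of all genes. Rows are roles, and the horizontal axis is the difference; in both panels most replication genes lie further left than most mitosis genes, and E2f2 lies at -0.32 (left panel) and -0.03 (right panel).

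Other genes of the cycle were counted from lists of the same kind. In the 6 Th0 libraries 2 of 48 other replication genes rose and 20 fell, and 1 of 50 other mitosis genes rose and 35 fell, where 52.1% of all genes were called. In the 4 iTreg libraries 19 other replication genes rose and 4 fell, while 0 other mitosis genes rose and 27 fell, where 58.1% of all genes were called. With all 12 libraries the medians were -0.11 and -0.21 in Th0 and -0.12 and -0.51 in iTreg for other replication and other mitosis genes, against 0.00 and 0.01 for all genes. In these fits, in which 12% of all genes were called in Th0 and 16.7% in iTreg, Orc5, an origin recognition subunit, fell by 0.56 in Th0 (adjusted p = 0.00659), the 1 call in the other replication list, and no other mitosis gene was called. In iTreg 4 other mitosis genes fell, Aspm (-0.76, adjusted p = 0.00815), Kif23 (-0.78, 0.0191), Cdc25b (-1.01, 0.0268) and Kif22 (-0.71, 0.0498). Of 25 G1 and Rb-E2F regulators, Mycn, a Myc-family factor that promotes growth, rose in Th0 (3.46, adjusted p = 0.0444) and in iTreg (3.58, 0.0297), and Tfdp2, a dimer partner of E2F factors, fell in iTreg (-0.53, 0.0455). Of 8 Cdk inhibitors, Cdkn2b (5.82), Cdkn2a (5.20) and Cdkn1a (1.88) rose in Th0 and Cdkn2d fell (-0.56), and in iTreg Cdkn2a rose (4.40, adjusted p = 0.0105). Cdkn2a, which encodes the Cdk inhibitor p16, had 1.06, 1.37 and 1.22 CPM in Th0 control, 35.8, 47.1 and 55.2 in Th0 Ezh2KO, 1.33, 1.14 and 0.967 in iTreg control, and 32.0, 39.5 and 1.10 in iTreg Ezh2KO. Without iTreg Ezh2KO.165 and iTreg control 177, 7 G1 and Rb-E2F regulators rose and 11 fell in Th0, and 4 Cdk inhibitors rose and 2 fell, where 51.6% of all genes were called. In iTreg 4 regulators rose and 8 fell, and 3 inhibitors rose and 3 fell, where 57.1% were called. In the 6 iTreg libraries alone edgeR called 0 genes of these 4 lists, with 3 other mitosis genes, 1 regulator and 1 inhibitor at an unadjusted p under 0.05. Cdkn2a was high in 5 of the 6 Ezh2KO libraries and at the control level in iTreg Ezh2KO.165, the library with the lowest levels of the replication genes.

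H3K27me3 was low over the members in control Th0 cells. Density, in CPM per kb of the gene interval, had a median of 0.421 over the 44 genes and of 0.919 over all 20376 intervals tested. All 44 were below that median and none was among the 10% of intervals with the highest density. Ube2c, an E2 enzyme of the anaphase-promoting complex, had the highest value, 0.705 and 0.865 in the control libraries 33 and 7, and 0.957 and 0.815 in Ezh2KO 10 and 9. Pcna came next with 0.433 and 0.755 in the control libraries 33 and 7, and 0.973 and 0.973 in Ezh2KO 10 and 9. E2f2 had 0.448 and 0.316 in the control libraries 33 and 7, and 0.943 and 0.843 in Ezh2KO 10 and 9, and 12.2% of intervals had less of the mark in control cells.

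In Ezh2KO cells the members took a larger share of the ChIP reads. Their median density was 0.927, and 40 of 44 were called higher and none lower, against 52.9% of all intervals called in either direction. In 43 members (all but Ube2c) both Ezh2KO libraries were above both controls, against 48.1% of all intervals. Kif20a had 0.218 and 0.223 in the control libraries 33 and 7, and 0.858 and 0.717 in Ezh2KO 10 and 9 (log2 change 1.83, SE 0.312, adjusted p = 0.00111). Mcm5 had 0.399 and 0.264 in the control libraries 33 and 7, and 0.977 and 0.907 in Ezh2KO 10 and 9 (1.51, adjusted p = 0.00161). Both genes showed the separation of genotypes seen in E2f2, which changed by 1.23 (adjusted p = 0.00335). The 4 not called were Ube2c (0.18, adjusted p = 0.605), E2f1 (0.68, 0.0596), Birc5 (0.73, 0.0632) and Pcna (0.70, 0.106).

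Other expressed genes changed alike. Of 6020 genes that are no members in the members' range of Th0 control CPM, 96.2% also had a larger share of reads in Ezh2KO, with a median density of 0.430 in control and 0.862 in Ezh2KO. The 10% of intervals with the highest control density went from a median of 2.99 to 1.21. Values are shares of each library, with no input or spike-in library used here, so a loss at marked genes and a gain elsewhere cannot be told apart. Replication and mitosis genes had similar medians, 0.393 and 0.436 in control and 0.908 and 0.939 in Ezh2KO. Without either Ezh2KO library no member and no interval was called (36 and 31 members at an unadjusted p under 0.05). TMM scaling lowered the median of all intervals from 0.21 to -0.02 and that of the members from 1.17 to 0.94, with 38 members called and Ube2c turning to -0.06. The 11 members whose interval overlaps another, Ube2c, Kif20a and Cdc20 among them, are uncertain. In contrast with the members, Cdkn2a (-1.97), Cdkn2b (-2.18) and Mycn (-2.10) lost a share of reads (edgeR log2 change, library-size scaling). Their lists as a whole were mixed. Of 25 G1 and Rb-E2F regulators 21 were called higher and 2 lower (median 0.86). Of 8 Cdk inhibitors 3 were called higher and 4 lower (median -0.49), where 52.9% of all intervals were called.

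**Figure D5:**
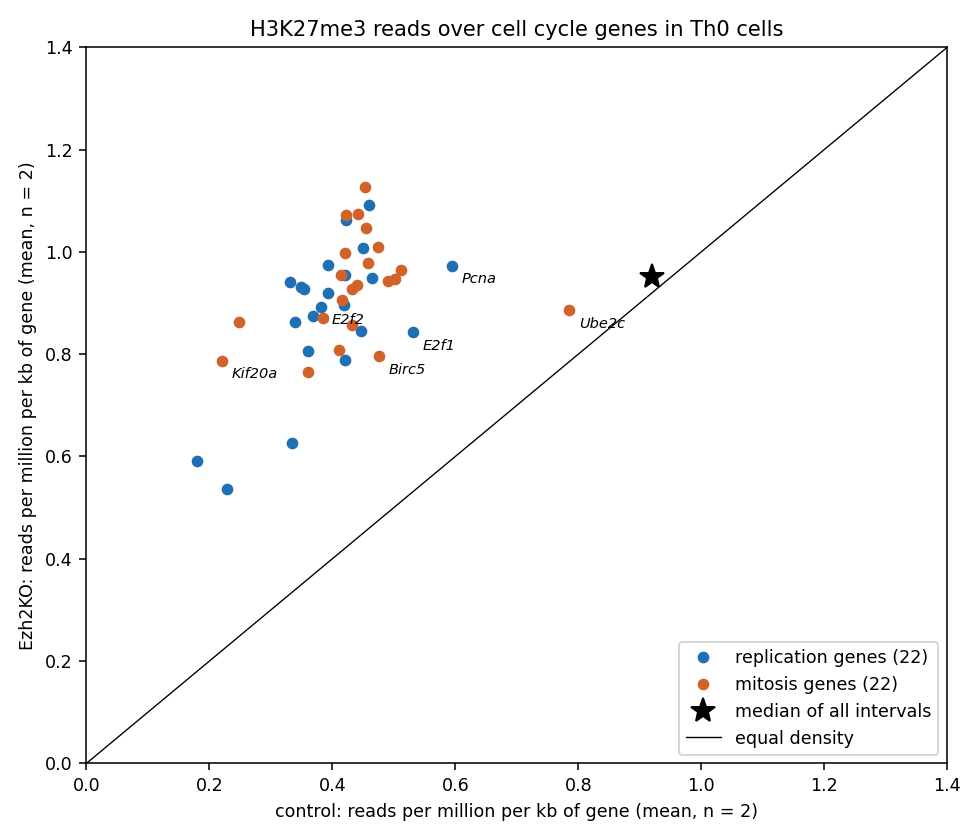
H3K27me3 density (CPM per kb of gene, mean of 2 libraries) of the 44 genes in control (horizontal) and Ezh2KO (vertical) Th0 cells; the star is the median of all intervals and the line marks equal density. All 44 points lie left of the star and above the line, with Ube2c the nearest to it.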

How the data were processed

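RNA-seq of 12 libraries (4 groups of 3) and H3K27me3 ChIP-seq of 4 (2 groups of 2) were analysed. The deposited values are counts of reads per gene that the authors made with Trimmomatic 0.30, TopHat2 2.0.6, Bowtie2 2.1.0 and featureCounts 1.4.2 on mm10, per the submitters' processing notes, which name no step for each tool. How strand and reads with several matches were handled is not given in the sources used here, so genes with pseudogene copies, such as Pcna and Tyms, are less certain.

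Genes passing filterByExpr (minimum count 10) were tested with edgeR 4.0.16 (R 4.3.3, quasi-likelihood, robust), two-sided, with Benjamini-Hochberg adjustment over all genes tested and a threshold of 0.05: RNA in 1 fit of 12 libraries with TMM scaling, ChIP scaled by library size. A gene is called when it passes. DESeq2 1.42.0, other scalings, limma 3.58.1 (voom), no filter, fewer libraries and each library left out were alternatives. SE is the log2 change divided by the square root of F. The steps were tested on simulated data with 2-fold and 4-fold changes. With all 12 libraries, 14% of the 2-fold changes in Th0 and 20% in iTreg were recovered. For 4-fold changes the shares were 93% and 94%. In the 6 Th0 libraries 96% of 2-fold changes were recovered, and in the ChIP libraries 37%. Changes of 2-fold or less can thus go uncalled in the 12-library fit.

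Genes given with values were the 22 listed for this purpose, the smallest p-values and the largest changes of each comparison. The members and lists were chosen with earlier results of these data known. Libraries are named by the numbers in their titles.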

Additional observations from a re-analysis of the deposited data

How the results depend on the processing

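The number of member calls varied most with which libraries were in the fit. Without iTreg Ezh2KO.165 and iTreg control 177, the calls numbered 30 for Th0 genotype, 25 for iTreg genotype, 11 for their difference, 37 for culture in controls and 38 for culture in Ezh2KO cells. Of all genes, 51.6%, 57.1%, 41.2%, 66.8% and 57.6% were called in these comparisons, in the same order. Without both Ezh2KO.165 libraries the member calls numbered 3, 6, 1, 37 and 5. Within 1 culture alone they numbered 30 in Th0 (against 52.1% of all genes) and 1 in iTreg (4.34%), with 23 in the 4 iTreg libraries (58.1%). Within 1 genotype they numbered 30 in control (53.4%) and 0 in Ezh2KO. Leaving out 1 library gave 1 to 6 calls for Th0 genotype, 1 to 8 for iTreg genotype, 0 to 2 for the difference, 0 to 37 for culture in control, 0 to 10 for culture in Ezh2KO and 0 to 41 for H3K27me3, with the high RNA values all without iTreg Ezh2KO.165. Without that library, 27.1% of all genes were called for Th0 genotype, 44.2% for iTreg genotype and 62.9% for culture in control. The other counts in this paragraph have no share of all genes beside them and describe the fits alone. DESeq2 gave 1 call for the difference, 1 for culture in control and 3 for culture in Ezh2KO, library size alone 1 for culture in control, relative log expression scaling 2 for culture in Ezh2KO, and no filter 1 for iTreg genotype. Limma voom, added after seeing the data, gave 2 for culture in Ezh2KO and the main counts for the other RNA comparisons, also with the library number as a replicate block (2 for culture in Ezh2KO, 1, 2, 0 and 0 for Th0 genotype, iTreg genotype, their difference and culture in control). The cultures share 1 library number per genotype and the genotypes none, and the correlation within a number was -0.00866. Among members called with or without the change, direction turned for Mcm4 (0.12) and Mcm5 (0.19) in iTreg genotype without the pair that stood apart, for Mcm5 (0.20) in the 4 iTreg libraries, and for Cenpe in culture of Ezh2KO cells (0.28 without iTreg Ezh2KO.165 or the pair, where leaving out 1 library gave -0.26 to 0.28). The alternatives change the libraries in the fit, and the cause beyond that was not tested. Of the values of single members under alternatives, 4223 kept direction and side of the threshold, 332 gained and 103 lost a call, and 5 turned as named. A further 265 changed sign with no call in either fit.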
